A study of Mus musculus with 30 samples.

Results

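Ighd3-2 is the D segment that follows Ighd4-1 (DQ52) when the mouse antibody heavy-chain locus (Igh) is walked from the JH segments towards the V segments. It is 1 of 21 D segments on mm9 and 1 of 26 on the target to which the bone marrow reads were aligned, and it holds place 2 from JH on both. Its members here are the reads whose junction lay within 100 bp of its bounds: 12516 of 1139295 bone marrow junctions and 4730 of 935698 v-Abl junctions. The bounds are chr12:114686425-114686440 on mm9 (minus strand, gene Gm16783, ENSMUSG00000076623.1) and chr12:114687612-114687627 on the bone marrow target, which combines the sequence AJ851868 with mm9 and has coordinates of its own. The segment was chosen by its level per 100000 junctions and its share of D joins, so those values are described below without a test.

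Heavy-chain genes are assembled by the RAG recombinase, which first joins a D segment to a JH segment and later joins a V segment to the DJH product. RAG cuts beside recombination signal sequences, each made of a heptamer, a spacer and a nonamer, and a D segment has such a signal on both sides. The ends at the segments are trimmed, can receive untemplated bases and are then ligated. RAG bound at the JH end is thought to meet D and V segments as chromatin is extruded by cohesin, and CTCF-bound elements (CBEs) are known to hold up that extrusion. IGCR1, a regulatory region between the V and D segments, carries 2 such elements, CBE1 and CBE2.

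HTGTS-V(D)J-seq amplifies genomic DNA outward from a bait at JH4 and reads what is joined to it. As a rule a D join marks a DJH rearrangement and a V join a VDJH rearrangement. D joins were assigned by position, so those of Ighd3-2 include inverted joins and joins that keep none of its bases, described below. The 18 bone marrow libraries came from B220+IgM-CD43+ pro-B cells sorted from 129SV mice, with 3 libraries for each of 6 IGCR1 genotypes: WT, CBE1&2-/- (CBE12mut), CBE1-/- (CBE1mut), CBE1inv/inv (CBE1inv), CBE2-/- (CBE2mut) and CBE2inv/inv (CBE2inv). The 12 v-Abl libraries came from C57BL/6 pro-B lines transformed by v-Abl, all RAG1-/- with an Emu-Bcl2 transgene, a degron on WAPL (a factor that releases cohesin from DNA) and a single Igh allele. RAG1/2 was returned to them by retrovirus, and 3 µM STI-571 was used for arrest, for 4 days in untreated cells. The parent (WT) and a line without the CBEs at the 3' end of Igh (3CBEdel) were left untreated or received 150 µM IAA (auxin) and 2 µg/mL Dox (doxycycline) for 3 days, with 3 libraries in each of the 4 groups. Each v-Abl genotype is a transformed line, and the labels do not say whether libraries of a group came from separate mice or cultures, so p-values measure the spread between these libraries.

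The letters of Ighd3-2 and its signals are shown because the joins described below turn on them. In each sequence the capitals mark the D segment, read 5' to 3' on the coding strand, and the lower-case letters are its V-side signal (left) and JH-side signal (right). The Ighd3-1 segment is shown for its likeness, Ighd4-1 and Ighd2-8 as neighbours on the JH and V sides, and Ighd1-1 as the D at the V-side end of the main D group.
Ighd3-2 on mm9: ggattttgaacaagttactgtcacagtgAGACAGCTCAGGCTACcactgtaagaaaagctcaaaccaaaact
Ighd3-2 on the bone marrow target: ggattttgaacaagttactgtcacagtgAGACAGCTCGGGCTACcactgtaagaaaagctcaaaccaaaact
Ighd3-1 on mm9: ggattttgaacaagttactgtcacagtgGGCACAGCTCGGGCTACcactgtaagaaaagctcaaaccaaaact
Ighd4-1 on mm9: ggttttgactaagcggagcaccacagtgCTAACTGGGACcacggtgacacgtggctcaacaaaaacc
Ighd2-8 on mm9: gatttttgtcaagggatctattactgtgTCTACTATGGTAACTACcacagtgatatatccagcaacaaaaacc
Ighd1-1 on mm9: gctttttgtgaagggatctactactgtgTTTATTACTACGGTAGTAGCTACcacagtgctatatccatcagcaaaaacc

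Ighd3-2 has 16 bp and no stop codon in any of its 3 frames on either target. From the mm9 to the bone marrow sequence it carries 1 change, A10G, counted from the 5' end of the D, and both signals are identical. Its JH-side heptamer is CACTGTA, which only Ighd3-1 shares among the 21 D segments of mm9, and which differs from the most common heptamer there, CACAGTG (8 segments), by A4T and G7A. On the V side the 7 bases before the D read CACAGTG on the coding strand, the letters of that most common JH-side heptamer in the same orientation, and Ighd3-1 and Ighd4-1 carry the same 7 bases. Ighd2-8 and Ighd1-1 have TACTGTG at that place. Ighd3-2 is set apart from Ighd4-1 by 17.675 kb on mm9 and by 14512 bp on the bone marrow target. On its V side a short segment follows after 1358 bp on mm9 (Ighd5-6) and after 1389 bp on the bone marrow target, and a segment that was joined often follows after 2621 bp (Ighd2-8) and 2658 bp (the D at 114690286).

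The window was generous. Within 20 bp of the segment lay 12456 of the bone marrow joins and all 4730 of the v-Abl joins, 60 bone marrow joins lay 21 to 100 bp away with the farthest at 73 bp, and none lay 101 to 200 bp away. Depth was 57970 to 98682 junctions in the bone marrow libraries of WT, CBE12mut, CBE1mut and CBE1inv, but 11105 to 41433 in CBE2mut and CBE2inv. It was 82947 to 175957 in untreated and 13180 to 31275 in treated v-Abl libraries, so that the groups with more Ighd3-2 joins were also the shallower ones in several comparisons, and the part of depth in those results was not tested. Read names placed WT, CBE12mut, CBE1mut and CBE1inv on the same sequencing run and CBE2mut and CBE2inv on another without WT, so for CBE2 genotype and run cannot be told apart. There are no molecular identifiers. Lines that repeat a junction, bait end, orientation and insert may be copies of 1 molecule, and counting each distinct line once left 3956 bone marrow and 591 v-Abl joins, or 3.16 and 8.0 lines for each distinct one.

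In WT bone marrow Ighd3-2 took 1368, 1154 and 1476 of 100000 junctions, a mean of 1333 ± 164 (SD, n = 3). CBE12mut libraries held 283, 197 and 508 (329 ± 161), all below WT, for a mean 4.04-fold lower. CBE1mut held 622, 605 and 584 (604 ± 19.2), also below every WT library and 2.21-fold lower. A lower level in all 3 libraries was common in both comparisons, at 52% of the 25 D segments with at least 10 joins in at least 3 libraries in each. CBE1inv, where the element is turned round rather than mutated, gave 1355, 1311 and 1165 (1277 ± 99.5), which overlapped WT and lay 2.12-fold above CBE1mut, with every CBE1inv library above every CBE1mut library (56% of D segments behaved so).

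The CBE2 genotypes went the other way. CBE2mut held 1802, 2305 and 2030 junctions of 100000 from Ighd3-2 (2046 ± 252, 1.54-fold the WT mean), and CBE2inv held 2759, 2105 and 3061 (2642 ± 489, 1.98-fold). All libraries of both lay above all WT libraries, which among the 25 D segments held for 4% in each comparison, that is for Ighd3-2 alone. The order of the means was CBE2inv, CBE2mut, WT, CBE1inv, CBE1mut and CBE12mut. Libraries of CBE2inv and CBE2mut overlapped, as did those of WT and CBE1inv, and the other neighbours in the order did not. All 5 comparisons use the same 3 WT libraries. With each distinct line counted once, CBE2mut was 1.18-fold the WT mean with overlapping libraries and CBE2inv was 1.36-fold and still above every WT library, while CBE12mut and CBE1mut remained below WT. The share of D segments that behaved so by distinct lines was not counted.

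Taken as a share of D joins, which leaves out how many alleles went on to a V join, the picture in bone marrow changed for the genotypes with fewer joins. Ighd3-2 made up 2.23%, 1.86% and 2.20% of D joins in WT (2.10% ± 0.209, n = 3), 2.35%, 1.65% and 3.40% in CBE12mut (2.47% ± 0.882) and 2.25%, 2.34% and 2.19% in CBE1mut (2.26% ± 0.079), and both mutants overlapped WT. CBE1inv libraries, at 2.60%, 2.59% and 2.35% (2.51% ± 0.140), all exceeded WT, as 32% of D segments did. CBE2mut reached 4.28%, 4.38% and 3.80% (4.15% ± 0.308, 1.98-fold) and CBE2inv 4.94%, 5.10% and 5.91% (5.32% ± 0.521, 2.54-fold), and in each of these comparisons 20% of D segments lay wholly above WT. Ighd3-2 was also without overlap higher in CBE1inv than in CBE1mut (20% of D segments) and in CBE2inv than in CBE2mut (12%). All these shares include joins that keep no D base, described below. Joins that keep D bases were 959 of 48742, 582 of 36051 and 1229 of 60264 D joins in WT. They were 1006 of 44155, 1073 of 50052 and 900 of 47525 in CBE1inv, which by that count overlapped WT. CBE1inv then also overlapped CBE1mut (366 of 20122, 377 of 19842 and 332 of 20749). CBE12mut held 116 of 8921, 101 of 8432 and 326 of 14491, with replicates 1 and 2 below every WT library. By joins that keep D bases, CBE2mut and CBE2inv still lay wholly above WT, and CBE2inv above CBE2mut. For how many other D segments that held by this count was not tabulated. Counted by distinct lines, with all joins again, the shares were 2.92% in WT, 3.95% in CBE2mut and 4.50% in CBE2inv, still without overlap with WT. CBE2inv and CBE2mut then overlapped, and CBE1mut (3.27%) then lay wholly above WT. How many D segments did the same by distinct lines was not counted. The rank of Ighd3-2 hardly moved: it was 11 to 13 of 26 D segments in every bone marrow library.

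**Figure D1:**
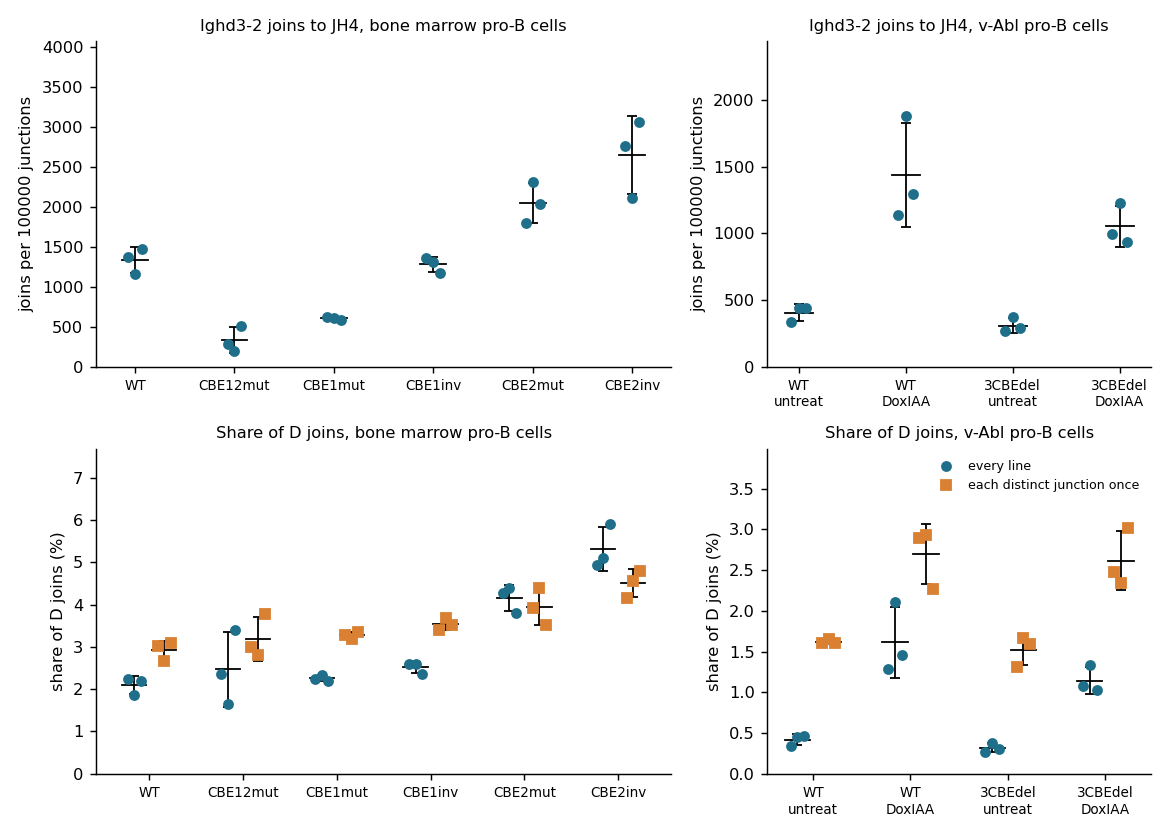
Ighd3-2 joins to JH4 in each library: the upper panels give joins per 100000 junctions and the lower panels the share of D joins in percent, with bone marrow genotypes on the left and v-Abl groups on the right. Points are libraries, bars are means ± SD (n = 3), and squares count each distinct junction once; CBE2mut and CBE2inv lie above WT and treated v-Abl libraries above untreated ones in both measures when every line counts.

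Treated v-Abl cells joined Ighd3-2 more often than untreated cells of the same line. In WT it took 335, 438 and 443 of 100000 junctions untreated (405 ± 61.0) and 1139, 1877 and 1296 treated (1437 ± 389), a 3.55-fold difference. In 3CBEdel it took 263, 368 and 292 untreated (308 ± 54.3) and 995, 1226 and 933 treated (1052 ± 155), a 3.42-fold difference. Every treated library lay above every untreated library of its line, as did 75% of the 12 D segments tested in either line, so Ighd3-2 did what most D segments did. The shares of D joins were 0.419% ± 0.064 and 1.61% ± 0.436 in WT (3.86-fold) and 0.316% ± 0.055 and 1.14% ± 0.162 in 3CBEdel (3.62-fold). The 3CBEdel libraries overlapped the WT libraries in both treatments and both measures. By distinct lines the share went from 1.62% to 2.70% in WT and from 1.52% to 2.62% in 3CBEdel. The differences between treatments thus shrank to 1.66-fold and 1.72-fold. Counting distinct lines also merges separate joins that are alike, and untreated libraries were deeper. The part of copies in that change was not tested. The level differed only 1.33-fold in WT and 1.53-fold in 3CBEdel by distinct lines, and libraries still did not overlap in either measure. For how many D segments that held by distinct lines was not counted. Without Ighd1-1 and Ighd4-1 in the denominator, with every line counted, the log2 difference in share was 0.84 in WT and 0.80 in 3CBEdel, against 1.95 and 1.85 with them. In the run that holds libraries of all 4 groups, the log2 difference in level was 1.85 in WT and 1.82 in 3CBEdel, against 1.83 and 1.77 over all libraries. Ighd3-2 ranked 6 to 8 of the 20 D segments that had joins in v-Abl libraries.

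Its neighbours give the scale. Ighd4-1, the D nearest to JH, took 5.62% ± 0.236 of D joins in WT bone marrow and 16.8% ± 1.13 in CBE12mut, so there were 2.69 ± 0.172 Ighd4-1 joins for each Ighd3-2 join in WT and 7.40 ± 2.74 in CBE12mut. In CBE2mut and CBE2inv that ratio was 1.81 ± 0.299 and 1.60 ± 0.0934. Ighd1-1 took 22.1% ± 1.11 of D joins in WT, 12.8% ± 0.593 in CBE2mut, 10.1% ± 0.904 in CBE2inv and 2.38% ± 0.202 in CBE12mut. These shares were not tested. In v-Abl cells Ighd1-1 went from 73.2% to 34.3% of D joins with treatment in WT and from 72.5% to 39.0% in 3CBEdel, and Ighd4-1 from 1.95% to 12.2% and from 1.61% to 8.06%. The ratio of Ighd4-1 to Ighd3-2 joins was 4.70 ± 0.464 and 7.87 ± 1.83 in WT and 5.17 ± 0.787 and 7.13 ± 0.853 in 3CBEdel. Ighd5-6, the next segment on the V side, took at most 0.0230% of D joins in the mean of any v-Abl group, and the D at 114689017 took 0.0113% in WT bone marrow. Ighd3-1, whose signals on mm9 are the same as those of Ighd3-2, lies on the V side of Ighd1-1. It took 0.00615% ± 0.0107 of D joins in WT bone marrow, from 9, 0 and 0 joins, and 2.58% ± 0.709 in CBE12mut.

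Over the 12 v-Abl libraries the segments whose log2 share followed that of Ighd3-2 most closely, of 9 others with at least 10 joins in every library, were Ighd4-1 (Pearson r = 0.98), Ighd2-8 (0.97) and Ighd2-6 (0.95), and Ighd1-1 ran against it (-0.95). Over the 18 bone marrow libraries and 12 others, likeness was weaker: the D at 114719358 (0.55), the D at 114700407 (0.55) and the D at 114705399 (0.51). Shares in a library add to a whole, and libraries of a group share their genotype or treatment, so these values only describe the libraries.

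The V joins are other reads and did not choose the segment. When a V segment has been added, the D lies inside the junction, where it was read from a run of at least 8 bases of a D. It was named when that run matched a single D. Such a run was found in 420747 bone marrow V joins, of which 7571 (2235 distinct) carried Ighd3-2, and in 18951 v-Abl V joins, of which 193 (82 distinct) did. Another 8635 of these bone marrow V joins held a run that Ighd3-2 shares with Ighd3-1, since both have 14 bases in common there. They were counted for neither segment but stay among the V joins with a D. A bone marrow V join was thus named Ighd3-2 only where its run reached past those 14 bases at the V-side end of the D. On mm9 the longest run shared with Ighd3-1 is 7 bases, so any run of 8 sufficed there. The V-join shares of bone marrow and v-Abl libraries are therefore unlike measures.

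Ighd3-2 rose inside V joins in CBE12mut. It made up 1.11%, 0.892% and 1.74% of V joins with a D in WT (1.25% ± 0.44, n = 3) and 2.31%, 2.41% and 2.20% in CBE12mut (2.31% ± 0.108), with no overlap. The log2 difference was 0.88 (SE 0.15, adjusted p = 3.09e-06, limma voom over 12 D segments), and the call was kept under all alternatives run, with values from 0.65 to 0.94 and, leaving out single libraries, from 0.72 to 1.15. It was not particular to Ighd3-2: all 12 D segments tested were called in that comparison, 66.7% of them higher, among them Ighd3-1 (3.31) and Ighd4-1 (0.65), and 33.3% lower, among them Ighd1-1 (-2.83).

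In CBE1mut the share was 1.60%, 1.84% and 1.72% (1.72% ± 0.119), which overlapped WT through 1 WT library at 1.74%. The log2 difference was 0.47 (SE 0.17, limma voom adjusted p = 0.0205), where 25% of D segments were called higher. That call is lost with limma trend (0.52, adjusted p = 0.0773), with TMM scaling (0.38, adjusted p = 0.0806), with median-of-ratios scaling (0.38, adjusted p = 0.0781), within the run of WT (0.47, adjusted p = 0.0785), and without CBE1mut replicate 2, WT replicate 1 or WT replicate 2.

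The other bone marrow genotypes were not called. CBE1inv stood at 1.51% ± 0.201 (log2 difference from WT 0.27, adjusted p = 0.207, limma voom, with 8.33% of D segments called higher), CBE2mut at 1.55% ± 0.559 (0.47, adjusted p = 0.150) and CBE2inv at 1.55% ± 0.256 (0.39, adjusted p = 0.244), with 16.7% of D segments called higher in each. CBE2mut was called without WT replicate 3, at 0.74. CBE1inv differed from CBE1mut by -0.20 (adjusted p = 0.535, limma voom) and CBE2inv from CBE2mut by -0.08 (adjusted p = 0.816), and 0% of D segments were called lower in either. So the genotypes with the largest share of D joins were not those with the largest share inside V joins. The log2 ratio of the share inside V joins to the share of D joins was lowest in CBE2inv (-1.79 ± 0.318) and CBE2mut (-1.49 ± 0.673). It was -0.80 ± 0.400 in WT and -0.75 ± 0.134 in CBE1inv, and higher in CBE1mut (-0.39 ± 0.0801) and CBE12mut (-0.04 ± 0.590). It contains the D joins and is given as a description. V joins whose run Ighd3-2 shares with Ighd3-1 (8635, against 7571 called) stand only in the denominator of its V-join share. Where those runs are Ighd3-2 the bone marrow ratio is too low, by an amount not measured. Its negative values therefore do not show that Ighd3-2 is rarer inside V joins than in D joins. By distinct lines CBE2mut was only -0.08 from WT in that ratio and CBE2inv -0.36.

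**Figure D2:**
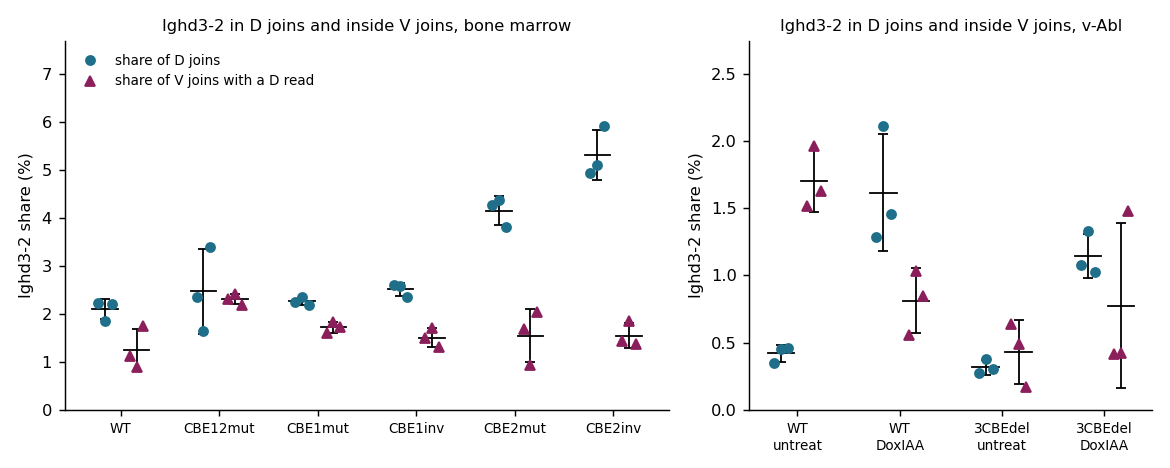
Ighd3-2 as a share of D joins (circles) and of V joins with a D read (triangles), in percent, for each library, with bone marrow on the left and v-Abl on the right. Bars are means ± SD (n = 3); CBE12mut has the highest share inside V joins and CBE2inv the highest share of D joins.

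In v-Abl cells few V joins held Ighd3-2, from 2 to 42 lines in a library. Untreated WT had 27, 38 and 42 such lines (1.52%, 1.96% and 1.63% of V joins with a D) and treated WT had 8, 22 and 16 (0.554%, 1.03% and 0.849%). Untreated 3CBEdel had 11, 8 and 2 lines (0.636%, 0.488% and 0.171%), and treated 3CBEdel had 4, 4 and 11 (0.417%, 0.422% and 1.48%). Every untreated WT library lay above all others, the closest being the treated 3CBEdel library at 1.48%.

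The treatment difference in WT, -0.97 on the log2 scale (SE 0.44), did not pass (limma voom adjusted p = 0.0797, with 12.5% of 8 D segments called lower), although the WT libraries did not overlap. With runs of at least 10 bases it did pass (-1.89, adjusted p = 0.0215). In 3CBEdel the treatment difference was 0.72 (SE 1.09, limma voom adjusted p = 0.580, 0% of D segments called higher). The difference between the treatment effects was 1.70 (SE 1.17, limma voom adjusted p = 0.407, 12.5% called), and it passed by distinct lines (1.51, adjusted p = 0.0451). Untreated 3CBEdel fell below untreated WT by 2.01 on the log2 scale (SE 0.80, adjusted p = 0.0279, limma voom), where 50% of the D segments were called lower, Ighd4-1 and Ighd2-8 among them. That call is lost without any 1 of the 3 untreated 3CBEdel libraries (values -2.37 to -1.53), with TMM (-1.55) or median-of-ratios scaling (-1.50), and within the run that holds all 4 groups (-1.58). After treatment 3CBEdel and WT differed by -0.32 (adjusted p = 0.975, limma voom, 12.5% of D segments called lower).

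The ends of the Ighd3-2 joins were read next, over deletional joins that keep at least 1 D base, 10627 in bone marrow and 4595 in v-Abl cells. In bone marrow libraries the JH-side end of the D was intact in 40.5% to 62.8% of them, 1.20 to 2.87 bases were trimmed on average, and 3.01 to 4.17 bases were inserted. In v-Abl libraries the end was intact in 51.7% to 82.3%, 0.285 to 0.914 bases were trimmed and 0.326 to 0.588 inserted. Joins without any insert made up 4.29% to 14.9% in bone marrow and 55.8% to 80.7% in v-Abl cells, ranges that do not overlap. Both kinds of library also differ in strain, cell type and alignment target, which cannot be told apart.

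The commonest v-Abl junctions show how uniform those joins were. In the sequences below, the capitals mark what is left of the D, the letters before it are the V-side flank and those after it belong to JH4, read 5' to 3'.
v-Abl, commonest: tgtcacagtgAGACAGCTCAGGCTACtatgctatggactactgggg
v-Abl, next: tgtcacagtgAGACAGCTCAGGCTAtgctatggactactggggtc
v-Abl, after that: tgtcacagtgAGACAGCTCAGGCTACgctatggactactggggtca
bone marrow, commonest: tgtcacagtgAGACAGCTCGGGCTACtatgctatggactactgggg
The commonest v-Abl junction keeps the whole D and lies where D and JH4 share 3 bases. It held 941 lines, 20.5% of v-Abl joins that keep D bases, and appeared in 12 of 12 libraries at 12.5% to 35.3%. The next lacks 1 D base, again with 3 shared bases (522 lines, 11.4%), and the one after it has an intact D with neither shared nor inserted bases (355 lines, 7.73%). The same junction as the commonest of v-Abl also led in bone marrow, but with 175 lines, 1.65% of joins, in 16 of 18 libraries.

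The reading frame was uneven in v-Abl lines. Frame 2 here means that the second base of the D begins a codon of JH4, and it held 44.6% to 68.8% of v-Abl joins against 28.7% to 46.3% of bone marrow joins. The 3 junctions printed for v-Abl are all in frame 2. When each distinct v-Abl line counted once, frame 2 held 33.3% ± 9.63 in untreated WT and 40.2% ± 6.06 in treated 3CBEdel, and joins with 3 shared bases made up 4.27% ± 0.872 and 6.79% ± 0.68, against 32.5% ± 2.04 and 25.9% ± 13.1 of all lines.

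None of the 24 comparisons of end, insert, frame and orientation between groups passed the Benjamini-Hochberg adjustment over them. The lowest p was that of frame 2 in v-Abl cells, 11.3 percentage points lower in 3CBEdel than in WT (exact permutation within treatment, two-sided, p = 0.005, adjusted p = 0.12), and by distinct lines that difference turned to 5.13 points higher. Next was frame 1 between the 6 bone marrow genotypes, whose means spanned 9.83 points (permutation test with 100000 draws, p = 0.0117, adjusted p = 0.140). Without CBE1mut library 3 that span was 12.3 points and passed (permutation test, adjusted p = 0.0367). For a pair of groups with 3 libraries each, the smallest exact two-sided p is 0.1. For a v-Abl comparison permuted within treatment or line it is 0.005, which for a single comparison adjusts to 0.12. No v-Abl comparison could therefore pass alone, and the lack of a call there does not show that groups were alike. Inverted joins were rare: 123 lines (43 distinct) in bone marrow and 14 (7 distinct) in v-Abl cells, 0.983% and 0.296% of the Ighd3-2 joins. In bone marrow 100 of the 123 ended at the signal end and 23 at the coding end.

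A second kind of Ighd3-2 join kept no D base at all and began on the V side of the segment. This was noticed in the data and chosen after its values were seen, so it is described without a test. It made up 1766 of the 12393 deletional bone marrow joins and 121 of the 4716 in v-Abl cells, or 14.1% and 2.56% of all Ighd3-2 joins. The commonest position of the first base kept was 23 bases from the JH-side end of the D, which is the base just past the V-side heptamer, with 594 bone marrow and 53 v-Abl lines. The heptamer crossed there is the stretch that reads CACAGTG towards the D in the sequences above.

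**Figure D3:**
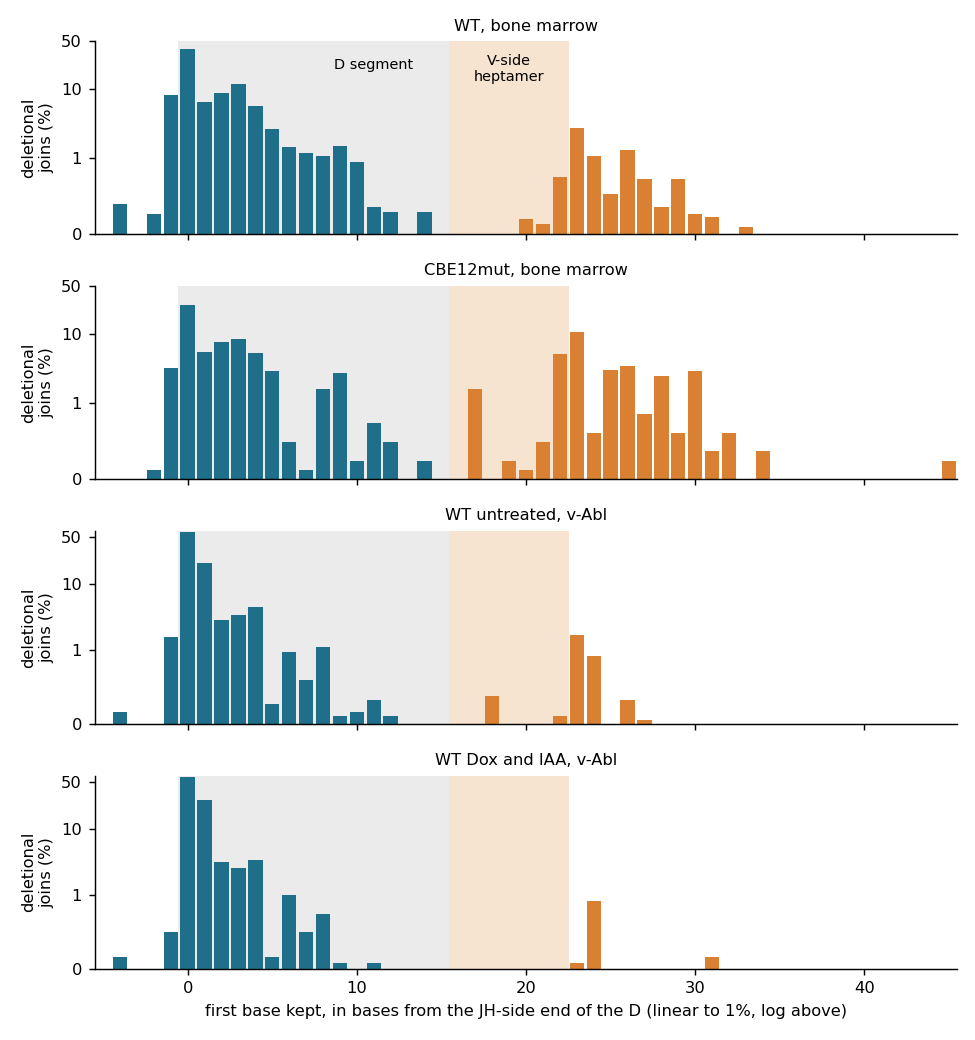
Where deletional Ighd3-2 joins begin, as a percentage of the joins of a group (linear to 1% and logarithmic above), against the distance in bases of the first base kept from the JH-side end of the D; 0 is an intact end. Grey marks the D and orange its V-side heptamer, for WT and CBE12mut bone marrow and for WT v-Abl cells untreated and treated; a second set of joins begins at about 23 bases and is larger in CBE12mut than in WT.

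These joins carried long inserts. The median insert was 12 bases in bone marrow and 7 in v-Abl cells, against 3 and 0 in joins that keep D bases. Of those with at least 7 inserted bases, 612 of 1384 in bone marrow (44.2%) and 54 of 66 in v-Abl cells (81.8%) held a run of 7 bases of Ighd4-1, the D on the JH side. In joins that keep Ighd3-2 bases and have inserts as long, the same run was found in 0 of 1317 and 0 of 6. In those reads the sequence runs from the Ighd3-2 flank through Ighd4-1 letters into JH4.

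By library the share of joins with no D base kept was 10.7%, 11.2% and 7.23% in WT bone marrow (9.70% ± 2.15), 42.9%, 26.6% and 30.4% in CBE12mut (33.3% ± 8.49), 18.8%, 16.8% and 24.4% in CBE1mut (mean 20.0%) and 11.7%, 16.1% and 17.2% in CBE1inv (mean 15.0%). All 3 groups lay wholly above WT. So did 64.7% of the 17 D segments with enough joins in the comparison with CBE12mut, 60% of 15 with CBE1mut and 31.2% of 16 with CBE1inv. CBE2mut (12.3%, 5.47% and 8.68%) and CBE2inv (11.2%, 11.9% and 13%) overlapped WT. By distinct lines the means were 13.7% in WT, 32.3% in CBE12mut and 21.4% in CBE1mut, without overlap with WT (100% of 12 D segments and 46.2% of 13 did so), and 17.9% in CBE1inv, with overlap. The v-Abl libraries ranged from 0% to 5.79%, and treated and untreated libraries of a line overlapped. By distinct lines treated WT (3.11% ± 3.66) lay below untreated WT (9.81% ± 2.97) without overlap, as 33.3% of 9 D segments did. The counts were small: 3 of 42, 1 of 46 and 0 of 36 joins in treated WT and 6 of 68, 5 of 67 and 10 of 76 in untreated WT. The closest libraries stood at 7.14% and 7.46%.

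Ighd3-2 differs from most D segments in where such joins begin. Joins that begin 8 to 15 bases beyond the V-side end of the D were 11.2% of all Ighd3-2 joins in bone marrow, 12% for Ighd3-1 and 4.12% for Ighd4-1, the 3 segments joined at least 50 times whose V-side flank ends in CACAGTG. For the 10 segments with TACTGTG there they were 0.831% to 1.77%. For the 5 seldom joined segments with CACCGTG they were 0% to 1.52%, though 1.82% to 17.5% of their joins kept no D base. In v-Abl cells the values were 2.30% for Ighd3-2, 0.255% for Ighd4-1 and 0.00994% to 0.0725% for the 7 segments with TACTGTG. These values pool all libraries of a cell kind. CBE12mut libraries gave 229, 158 and 477 of the 1139 bone marrow Ighd3-1 joins, but only 210, 139 and 493 of the 12516 of Ighd3-2. Joins with no D base kept were more frequent in CBE12mut than in WT, so the 11.2% and 12% come from unlike mixes of genotypes. The same holds for the 14.1% and 15.1%. Whether the flanking letters have a part in this was not tested.

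**Figure D4:**
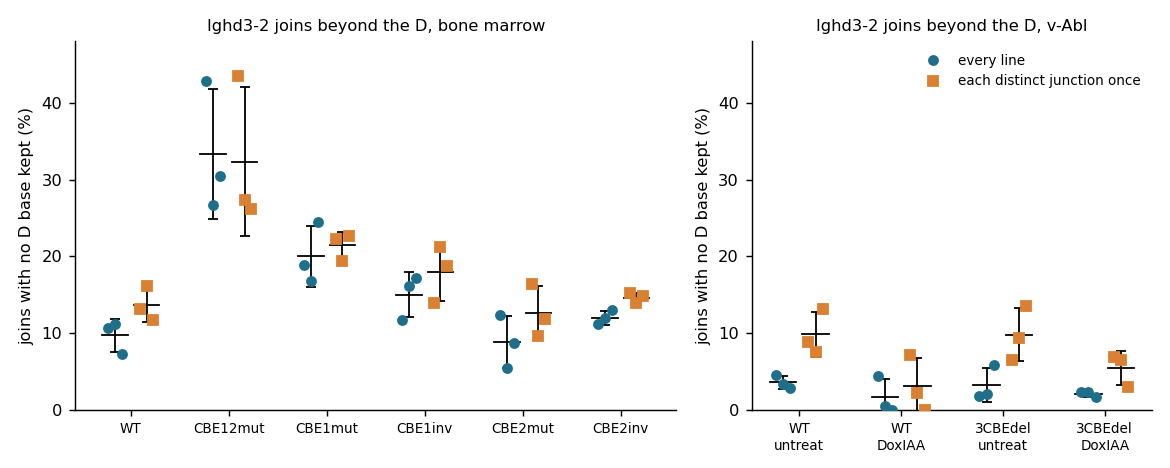
Share of Ighd3-2 joins that keep no D base, in percent, for each bone marrow library (left) and v-Abl library (right). Circles count every line, squares each distinct junction once, and bars are means ± SD (n = 3); the CBE12mut libraries (26.6% to 42.9%) lie above all others.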

How the data were processed

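JH4-bait HTGTS-V(D)J-seq was analysed in 18 bone marrow and 12 v-Abl pro-B libraries. Bowtie2 and mm9 are named in the submitters' processing notes, and bone marrow reads were aligned to AJ851868/mm9, per the labels. Other upstream steps are not given in the sources used here. Per the file headers, the deposited files give 1 line for each read, with the position, orientation and read offsets of its junction as plain coordinates (other units), and no count or level, so levels were tabulated here. A join is deletional or inverted by its strand column, and inserted or shared bases come from the gap between bait and prey in the read. Joins within 100 bp were assigned to Ighd3-2. A V join was given the D that alone matched a stretch of 8 or more of its bases. Those counts were fitted with voom (limma 3.58.1, R 4.3.3) for every D segment that reached 10 in at least 3 libraries, 12 for bone marrow and 8 for v-Abl. Library size was the V joins with a D, with 1 shared spread per cell kind, no block and Benjamini-Hochberg adjustment at 0.05. Same-numbered libraries were checked for shared deviations from their group means in the log2 share of D joins. All 3 pairs correlated above 0.1 for CBE12mut against WT bone marrow (0.11, 0.37 and 0.12 over 13 D segments). The same held for treated against untreated WT (0.74, 0.65 and 0.39 over 10), so both were marked as paired. That mark comes from the data, and the main fits and permutations did not use it. In bone marrow 19 of 45 same-numbered pairs exceeded 0.1, so the rule can be met without a true pairing. Same-numbered libraries of both comparisons share a sequencing run. In bone marrow, however, all WT and CBE12mut libraries share the same run, which does not single out same-numbered ones. The fit and the permutations were tested on simulated data. Join ends were compared by exact permutation or, between the 6 genotypes, 100000 draws. Tables and figures used Python 3.11.15. Alternatives were distinct lines, other windows, run lengths, scalings, filters, runs and left-out libraries; those on runs shared with Ighd3-1, on levels within 1 run and on distinct lines for joins beyond the D were added after the data were seen. The segment and lists were chosen with earlier results of these data known. Named by rule were Ighd4-1, the next D on the V side, Ighd1-1 and the 3 D segments most alike; Ighd3-1, Ighd2-6 to Ighd2-8 and the D at 114690286 otherwise appear for their sequence, place or calls, chosen with values seen.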

Additional observations from a re-analysis of the deposited data

How the results depend on the processing

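Counting distinct lines moved most descriptions of level and share. The log2 differences in level became -0.98 for CBE1mut, 0.23 for CBE2mut, 0.44 for CBE2inv, 0.41 for treated WT and 0.61 for treated 3CBEdel, and those in share 0.43, 0.63, 0.73 and 0.78 for the last 4. Without Ighd1-1 and Ighd4-1 in the denominator the latter were 0.85, 1.17, 0.84 and 0.80. The ratio of V-join to D-join share became -0.078 for CBE2mut, -0.36 for CBE2inv and -1.52 for treated WT by distinct lines, and -2.31 for treated 3CBEdel within the run of all 4 groups. The cause was not tested.

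Inside V joins, calls were lost for CBE1mut (limma trend 0.52, TMM 0.38, median-of-ratios 0.38, run of WT 0.47) and for untreated 3CBEdel (TMM -1.55, median-of-ratios -1.50, run of all 4 groups -1.58, with fewer libraries), and gained for treated WT (runs of 10 bases, -1.89) and the interaction (distinct lines, 1.51). Signs turned, all without a call, for CBE2inv against CBE2mut (0.036 with runs of 10 bases, 0.056 with limma trend), treated 3CBEdel against untreated (-0.32 within 1 run) and treated 3CBEdel against treated WT (0.14 by distinct lines, 0.53 with runs of 10 bases). In v-Abl joins they turned for the treatment difference in inverted share (0.039), joins without insert (-0.59) and frame 3 (0.97) within 1 run and in frame 2 (1.75) by distinct lines, and for 3CBEdel minus WT by distinct lines in inserted bases (-0.10) and frames 1, 2 and 3 (-3.21, 5.13, -1.92).

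Leaving out single libraries gave 0.32 to 0.75 for CBE1mut, 0.28 to 0.74 for CBE2mut, -0.28 to 0.11 for CBE2inv against CBE2mut and -2.37 to -1.53 for untreated 3CBEdel inside V joins. For v-Abl treatment it gave -0.10 to 0.099 points in inverted share, -1.88 to 3.00 in intact ends, -0.11 to 0.043 trimmed bases, -1.38 to 4.55 in joins without insert, and -0.38 to 2.59, -3.21 to 0.73 and -2.62 to 1.11 in frames 1, 2 and 3. Frame 1 between bone marrow genotypes spanned 9.36 to 12.3, and it passed only without CBE1mut library 3 (12.3, permutation test, adjusted p = 0.0367).

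Outside the comparisons marked as paired, CBE12mut against WT bone marrow and treated against untreated WT, at least 1 same-numbered pair of each comparison had a correlation under 0.1. There the numbers name libraries only. Over all 45 bone marrow pairs 19 exceeded 0.1, and 10 of 18 v-Abl pairs. A replicate block over all libraries of a cell kind changed no call: inside V joins it gave 0.84 for CBE12mut, 0.42 for CBE1mut, -0.99 for treated WT (limma voom adjusted p = 0.129) and -2.03 for untreated 3CBEdel. Counts of 2 to 42 lines limit the v-Abl V joins.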
